A study of Mus musculus with 18 samples.

Results

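The solute carrier (SLC) genes described here are 37 genes of the 12241 measured in either deposited table. They were chosen by symbol, as every gene whose name begins with Slc and a digit or with Slco. Symbols could be read for 3379 of the 12241 genes, because the tables give UCSC transcript identifiers and symbols came from 2 shortened lists published with the study. One list is ordered by translational efficiency (TE) in the mesoderm and gave 21 of the 37 genes. The other is ordered by the TE difference between neural tube and forelimb bud and gave 20, with 4 genes in both. The mesoderm TE of the 21 genes and the tissue difference of the 20 genes therefore chose them, and those values are given as a description with no test. Tests are given for the 14 genes of the mesoderm list alone in the neural tube and forelimb libraries, and for the 15 genes of the tissue list alone in the mesoderm libraries. The 14 lack the genes with the widest tissue differences in TE, and the 15 lack those with the most extreme mesoderm TE. On those 2 measures the sets were narrowed beforehand, so few or no calls there follow from the choice.

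All tissues came from mouse embryos at E11.5. Mesoderm cells were GFP+ cells sorted from dissociated R26-mTmG flox/+ embryos that carried Tg(T-cre)1LWD/J, a transgene in which Cre marks the lineage leaving the primitive streak. Neural tube (NT) and forelimb bud (FL) were dissected by hand from FVB embryos, both tissues from the same embryos. The media for collecting tissue and the Ribo-Seq lysis buffer held cycloheximide. RNA-Seq and Ribo-Seq, which sequences ribosome-protected fragments (RPFs), were each done in 3 replicates a tissue, 18 libraries in all. TE is the log2 ratio of RPF to RNA-Seq normalized reads over the coding sequence (CDS), and is given relative to the median of all genes in its table. Of the 37 genes, 36 were in the mesoderm data, 34 in the NT and FL data and 33 in both. The tables were normalized separately, so no test runs across them.

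Solute carriers are membrane proteins that move ions, metals, sugars, amino acids, vitamins and metabolites across cell and organelle membranes, mostly as exchangers or cotransporters that spend no ATP themselves. The SLC25 family sits in the inner mitochondrial membrane. The SLC4, SLC8, SLC9 and SLC12 families set intracellular pH, calcium and chloride, and *Slc12a5* is known for lowering chloride in neurons as they mature.

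Reads over the coding sequences of the measured genes, recovered from the normalized values, numbered 24555103 to 50136443 in RNA-Seq libraries. In Ribo-Seq libraries they numbered 11000015 to 31993255. RPF replicate 3 stood apart in both dissected tissues (r of log2 reads with replicates 1 and 2 of 0.93 in NT and 0.89 to 0.90 in FL, against 0.99 and 0.98 between replicates 1 and 2). NT RNA-Seq replicate 1 also stood apart, with r of 0.95 to both others against 0.97 between them. In the mesoderm replicate 1 was the least like the others in RNA-Seq (r of 0.94 and 0.95). In mesoderm Ribo-Seq, r was 0.92 between replicates 1 and 2, and 0.96 between replicate 3 and each of them. Counts of called genes that changed without these libraries are given both with and without them. The 4 neural markers (*Dcx*, *Nefm*, *Fabp7*, *Ina*) summed to 29101 to 42809.7 normalized reads in NT RNA-Seq and 559 to 1011 in FL, and the 4 limb markers (*Msx1*, *Hoxd11*, *Hoxd13*, *Lhx2*) to 2359.6 to 2775 in NT and 14968 to 19039 in FL. Fewer cells of a type and less RNA per cell cannot be told apart in these bulk samples.

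Start codon contexts are shown for the 3 genes of lowest and the 3 of highest mesoderm TE whose sequence can be printed, since initiation is one of the steps that TE reflects. Each has 10 bases before and 7 after the start codon in capitals, 5′ to 3′ on the coding strand, read from the GENCODE M21 transcript with the longest CDS on GRCm38. They were picked after the values were seen.
Slc4a3: cagccctgccATGgctaatg
Slc9a5: ggacagcaagATGctgagcg
Slc25a47: tgtgctgtccATGgattttg
Slc7a8: acggagaaagATGgaaaagg
Slc38a5: cccacttcaaATGgccattt
Slc11a1: ctgcgtcctcATGattagtg

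The start codons lie at chr1:75546871-75546873 (+), chr8:105349377-105349379 (+), chr12:108851180-108851182 (+), chr14:54781325-54781327 (-), chrX:8271483-8271485 (+) and chr1:74375315-74375317 (+), in that order. Of 36 solute carrier genes with a context, 28 had A or G at position -3 (77.8%), against 83.9% of 20204 coding genes. An upstream ATG in the annotated leader was found in 25 of the 37 (67.6%) and in 50.5% of 21607 coding genes. The median leader was 216 bases against 153, and the median CDS 1533 bases against 1188. *Slc35a4*, a member of the nucleotide sugar transporter family, had 18 upstream ATGs in a leader of 1099 bases, the most of the 37. In the mesoderm, median log2 TE was -1.49 over 24 genes with an upstream ATG (-3.81 to 1.91) and 0.47 over 12 without (-3.08 to 1.68). The gap was narrower in the dissected tissues, with medians of -0.97 over 24 genes and -0.28 over 10 in NT and of -1.51 and -0.27 in FL. TE values chose the genes, 21 of them by mesoderm TE itself, so these medians are a description. Both groups span nearly the whole mesoderm range, *Slc25a47* being low with no upstream ATG and *Slc7a8* high with 1. These features come from an annotated isoform that need not be the one expressed here.

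Low TE carried over from the mesoderm list to the dissected tissues. Among its 14 genes tested, TE was low for 7 in NT (50.0%, background 4.13% of 11231 genes) and for 7 in FL (50.0%, background 13.4%). The list took genes of extreme, mostly low, mesoderm TE, and TE lay close between tissues for genes at large. Over 11054 genes in both tables, the median distance of mesoderm log2 TE was 0.34 to NT and 0.30 to FL. Shares above the background therefore follow from the list and are not particular to solute carriers. TE-low here means an adjusted p under 0.05 from limma and at least 3-fold below the median. *Slc25a23*, *Slc25a47*, *Slc35a4* and *Slc9a5* were TE-low in both tissues. *Slc25a39*, *Slc25a51* and *Slc45a3* passed in NT, and *Slc25a37*, *Slc25a40* and *Slc30a9* in FL. *Slc7a8* was TE-high in FL, the single TE-high gene of the 14 (7.14%, background 6.25%), and none was TE-high in NT (background 0.436%), where *Slc7a8* had 1.15 at adjusted p = 0.045 from limma, short of 3-fold. The median log2 TE of the 14 was -1.52 in NT and -1.68 in FL, against 0 for all genes. Without RPF replicate 3 of both tissues, 6 were TE-low in NT (background 3.9%) and 9 in FL (background 18.2%), *Slc25a44* and *Slc45a3* joining in FL. Without NT RNA-Seq replicate 1, 5 were TE-low in NT (background 3.99%). The plot of TE in the 3 tissues sets the genes side by side.

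**Figure D1:**
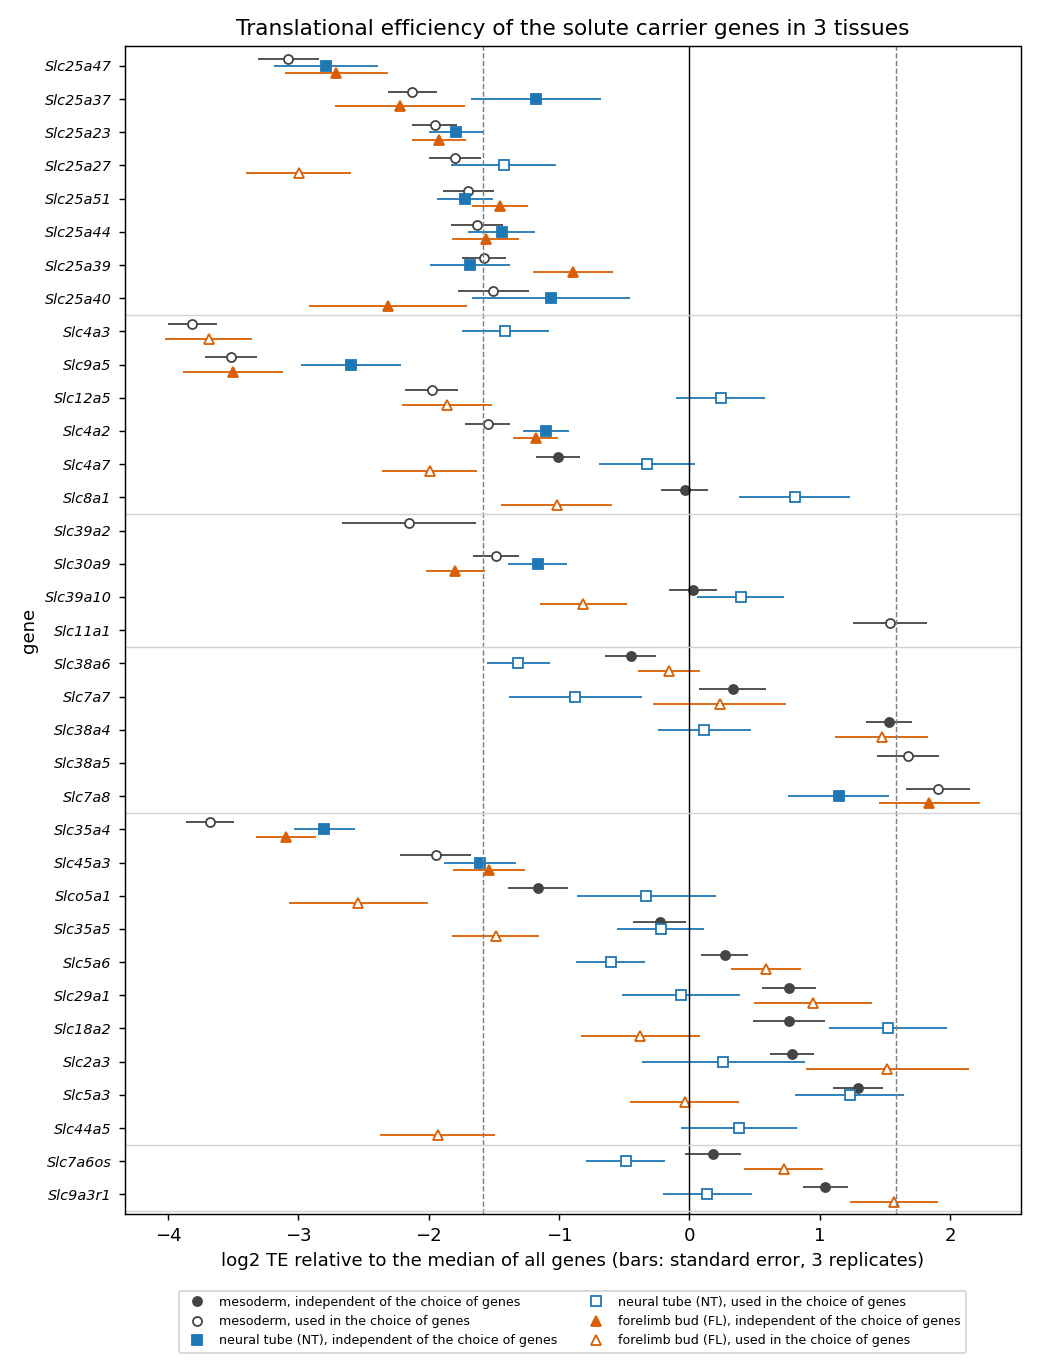
Log2 TE of the solute carrier genes named here relative to the median of all genes (x axis) in the mesoderm, NT and FL, with dashed lines at 3-fold. Bars are standard errors from the limma fits, which in NT and FL share a spread estimated over all 12 libraries. Filled points, labelled independent, mark genes absent from the list drawn on those libraries, and open points mark genes on it. Absence from the mesoderm list, which holds extremes, also limits the filled mesoderm values. In the mesoderm, Slc4a3, Slc9a5, Slc35a4 and Slc25a47 sit farthest to the left.

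All 9 mitochondrial carriers came from the mesoderm list, and their mesoderm log2 TE ran from -3.08 (*Slc25a47*) to -1.50 (*Slc25a40*) among those named here, with a median over all 9 of -1.69. That range is what the list selected. Of the 8 carriers open to a test, 4 were TE-low in NT (background 4.13%) and 4 in FL (background 13.4%). All 8 lay below 0, the median of all genes, in both tissues. So did 13 of the 14 genes tested in each tissue, so that direction is not particular to mitochondrial carriers.
*Slc25a47* (chromosome 12, 108836046 to 108856815, plus strand) is a carrier known from liver. Mesoderm libraries had 236, 300.02 and 276 normalized reads in RNA-Seq and 32.8, 31.1 and 31.6 in Ribo-Seq. In NT it had 141, 104 and 127 in RNA-Seq and 23.9, 21.1 and 10.2 in Ribo-Seq. In FL it had 182, 182 and 177 in RNA-Seq and 28.9, 21.3 and 31.4 in Ribo-Seq. Every Ribo-Seq value lay below every RNA-Seq value of its tissue. Log2 TE was -2.79 in NT (standard error 0.40, adjusted p = 0.00052 from limma) and -2.71 in FL (0.40, adjusted p = 0.00026 from limma), from 7 to 33 RPF reads a library.
*Slc25a23* (chromosome 17, 57043711 to 57059863, minus strand) exchanges ATP-magnesium for phosphate. NT had 2236, 1714 and 2132 normalized reads in RNA-Seq and 596, 578 and 607 in Ribo-Seq, and FL had 626, 792 and 563 in RNA-Seq and 173, 151 and 194 in Ribo-Seq. NT exceeded FL in every library of both kinds, with no overlap. TE was -1.79 in NT (standard error 0.21, adjusted p = 0.00015 from limma) and -1.92 in FL (0.21, adjusted p = 5.3e-05 from limma). The mesoderm values were 561, 928 and 886 in RNA-Seq and 144, 253 and 230.3 in Ribo-Seq, with a log2 TE of -1.95 ± 0.043 (SD, n = 3).

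*Slc25a39* and *Slc25a40* are related carriers linked to mitochondrial glutathione, and *Slc25a39* had many more reads. It had 4248, 2429 and 2176 normalized reads in NT RNA-Seq and 3200.3, 2819 and 2784 in FL, with RPF values of 768, 735 and 1273 in NT and 1956, 1869 and 1079 in FL. RPF replicate 3 was the highest NT library and the lowest FL library, and the tissues overlapped there. Log2 TE was -1.68 in NT (standard error 0.31, adjusted p = 0.0024 from limma) and -0.89 in FL (0.31), the latter short of 3-fold. Without NT RNA-Seq replicate 1 the NT value was -1.40 and no longer passed 3-fold, and without replicate 2 of both tissues it was -1.66 at adjusted p = 0.075 from limma. Mesoderm libraries had 2307, 5129 and 3945 in RNA-Seq and 809, 1745 and 1337 in Ribo-Seq, lowest in replicate 1 for both kinds. *Slc25a40* had 146, 183 and 57.7 in NT RNA-Seq, 74.5, 49.6 and 47.8 in NT Ribo-Seq, 172, 201 and 261 in FL RNA-Seq and 16.0, 38.4 and 112 in FL Ribo-Seq. FL RPF replicate 3 lay far above the other two. Mesoderm libraries had 273, 81.2 and 115 in RNA-Seq and 68.5, 41.5 and 40.6 in Ribo-Seq. Its log2 TE was -2.31 in FL (standard error 0.61, adjusted p = 0.006 from limma) and -1.06 in NT, not called. The FL value was -3.02 without RPF replicate 3 of both tissues. It was -1.80 without replicate 1 and -2.29 without replicate 2 of both tissues, where the call was lost at adjusted p = 0.077 and 0.079 from limma.

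*Slc25a37*, mitoferrin 1, imports iron into mitochondria and is known from red cell precursors. It had 364, 447 and 552 normalized reads in NT RNA-Seq, 259.5, 244 and 129 in NT Ribo-Seq, 582, 689 and 750.4 in FL RNA-Seq and 57.7, 147 and 348 in FL Ribo-Seq. FL RPF replicate 3 was the highest of its group and NT RPF replicate 3 the lowest. The mesoderm values were 494, 466 and 447 in RNA-Seq and 110.2, 114 and 104 in Ribo-Seq. Log2 TE was -2.22 in FL (standard error 0.50, adjusted p = 0.0025 from limma) and -1.18 in NT, not called. Without RPF replicate 3 of both tissues the FL value was -2.86. Without replicate 2 of both tissues it was -2.22, and the call was lost at adjusted p = 0.057 from limma. The 7 erythroid markers summed to 90057 to 169911 normalized reads in FL Ribo-Seq, lowest in replicate 3, and to 56177 to 71792 in NT Ribo-Seq, highest in replicate 3. *Hba-x*, an embryonic globin, made up most of each sum (84882 in FL replicate 3). *Rhd* ran like *Hba-x* in replicate 3, with 385, 565 and 281 in FL Ribo-Seq and 130, 146 and 209 in NT Ribo-Seq. *Hba-a2* was also lowest in FL replicate 3 (2381, 2845 and 1224), where *Hemgn* and *Rhag* lay between the other libraries. *Tfrc* and *Ank1* ran the other way in replicate 3 of both tissues, like *Slc25a37*. *Tfrc*, the transferrin receptor, had 1281, 1217 and 3113 in FL Ribo-Seq and *Ank1*, a red cell ankyrin, 28.9, 46.9 and 129.9, both highest in replicate 3. In NT Ribo-Seq *Tfrc*, *Ank1*, *Hemgn*, *Rhag* and *Hba-a2* were lowest in replicate 3. The part of red cells in the *Slc25a37* values was not tested.
*Slc25a51* brings NAD into mitochondria. Its NT values were 1661, 1740.1 and 1602 in RNA-Seq and 628, 542 and 403 in Ribo-Seq, and its FL values 1734, 1566 and 1532 in RNA-Seq and 479, 605 and 697 in Ribo-Seq. The tissues overlapped in both. The mesoderm values were 1264, 1869 and 1866 in RNA-Seq and 524, 436 and 609.7 in Ribo-Seq. Log2 TE was -1.72 in NT (standard error 0.21, adjusted p = 0.00023 from limma) and -1.46 in FL, and without NT replicate 3 the NT value was -1.57 and fell short of 3-fold. *Slc25a44*, a carrier of branched-chain amino acids, had -1.44 in NT and -1.56 in FL, both with adjusted p under 0.05 and within 3-fold.

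The ion exchangers and cotransporters held the lowest TE of the set in the mesoderm and FL, and *Slc35a4* in NT. *Slc4a3* (uc007bpv.2, chromosome 1, 75546266 to 75562172, plus strand) encodes a chloride/bicarbonate exchanger that lowers intracellular pH. Mesoderm libraries had 2653, 2765 and 3004 normalized reads in RNA-Seq and 188, 156 and 289 in Ribo-Seq. In FL it had 2538, 2893 and 2103 in RNA-Seq and 151, 132 and 359.8 in Ribo-Seq. In NT it had 2168, 1806 and 2742 in RNA-Seq and 686, 870.1 and 1016 in Ribo-Seq. RNA-Seq values of NT and FL overlapped, whereas every NT RPF value exceeded every FL one. Log2 TE was -3.81 in the mesoderm, -3.69 in FL and -1.41 in NT. Between FL and NT, RPFs fell by 2.13 on the log2 scale, mRNA differed by 0.175 and TE fell by 2.30. *Slc4a3* stood in both lists, so these values are a description. The TE difference was -2.62 without RPF replicate 3 of both tissues and -2.29 without NT RNA-Seq replicate 1.

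*Slc9a5*, a sodium/proton exchanger of the brain, came from the mesoderm list alone and so could be tested. It had 1103, 971 and 1098 normalized reads in NT RNA-Seq and 215, 236 and 110.2 in NT Ribo-Seq, and 1548, 1642 and 1530.2 in FL RNA-Seq and 96.2, 98 and 281 in FL Ribo-Seq. FL RNA-Seq values exceeded NT ones without overlap. RPF replicates 1 and 2 were higher in NT, and replicate 3 reversed that order. The mesoderm values were 2139, 1681 and 1902 in RNA-Seq and 140.0, 199 and 174 in Ribo-Seq, again without overlap. Log2 TE was -2.60 in NT (standard error 0.38, adjusted p = 0.00065 from limma) and -3.50 in FL (0.38, adjusted p = 5.4e-05 from limma), beside -3.52 in the mesoderm.
*Slc12a5*, a potassium-chloride cotransporter, stood in both lists. It had 962, 1464 and 1686 normalized reads in NT RNA-Seq and 1400.1, 1610.0 and 1841 in NT Ribo-Seq. In FL it had 442, 307 and 343 in RNA-Seq and 99.4, 57.5 and 169 in Ribo-Seq, and in the mesoderm 476, 426 and 597 in RNA-Seq and 104, 95.4 and 210.0 in Ribo-Seq. NT and FL did not overlap in either kind of library. Log2 TE was 0.24 in NT, -1.86 in FL and -1.98 in the mesoderm. In the NT and FL table, mRNA, RPFs and TE were all higher in NT.

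**Figure D2:**
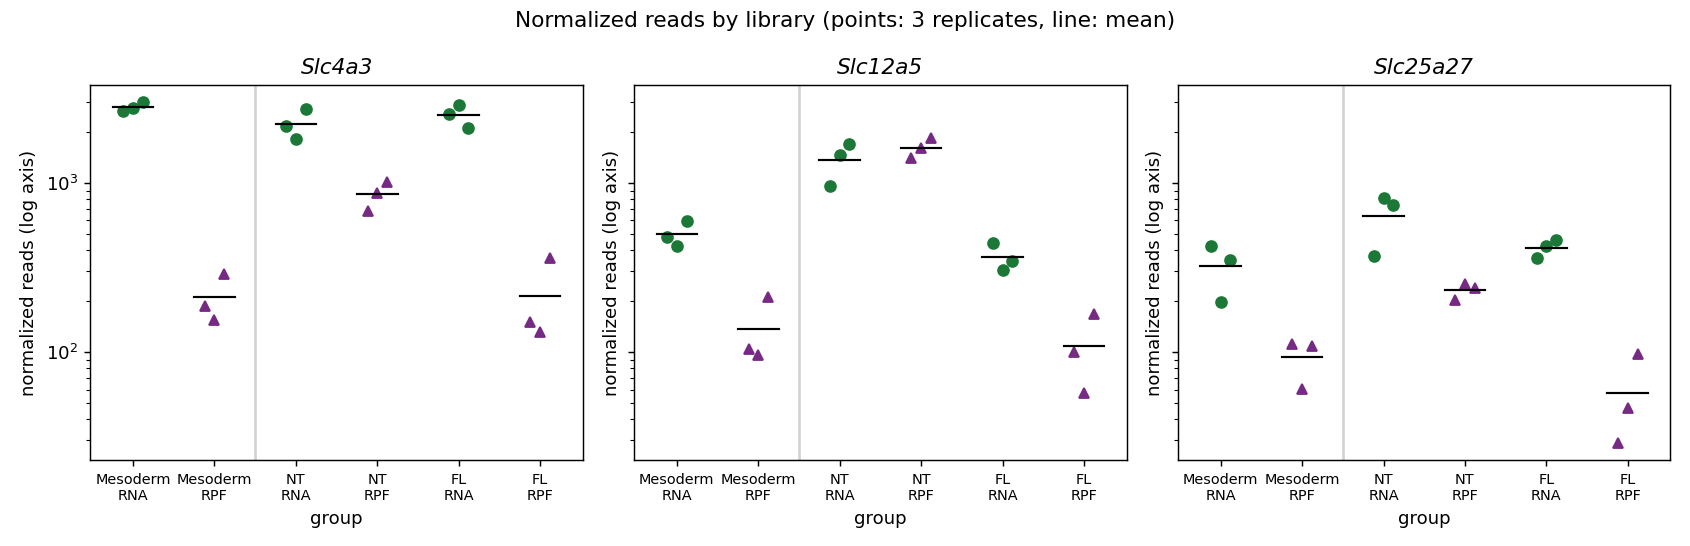
Normalized reads (log axis) of Slc4a3, Slc12a5 and Slc25a27, which stood in both lists, in each library, RNA-Seq as circles and Ribo-Seq as triangles, with a line at the mean of 3 replicates. In FL the Ribo-Seq points of all 3 genes lie below every RNA-Seq point; in NT the Ribo-Seq points of Slc12a5 reach the RNA-Seq points.

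*Slc25a27*, a mitochondrial uncoupling protein of the brain, also stood in both lists. It had 372, 808 and 742 normalized reads in NT RNA-Seq, 202, 253 and 238 in NT Ribo-Seq, 362, 422 and 459 in FL RNA-Seq and 28.9, 46.9 and 97 in FL Ribo-Seq. Its mesoderm libraries had 422, 198 and 351 in RNA-Seq and 112, 60.2 and 108 in Ribo-Seq. NT and FL overlapped in RNA-Seq through NT replicate 1 and did not overlap in Ribo-Seq. Log2 TE was -1.42 in NT, -2.996 in FL and -1.80 in the mesoderm. TE in the mesoderm lay within 0.2 of its FL value for *Slc4a3* and *Slc12a5* and nearer to its NT value for *Slc25a27*.
Among the other exchangers, the anion exchanger *Slc4a2* had -1.10 in NT and -1.18 in FL, both within 3-fold. *Slc4a7*, a sodium bicarbonate cotransporter, had -0.33 in NT and -1.99 in FL, and *Slc8a1*, the sodium/calcium exchanger of heart and neurons, had 0.81 and -1.02. *Slc8a1* had the highest TE of its class in all 3 tissues. It had 529, 1166 and 967 normalized reads in NT RNA-Seq, 1544, 1791 and 1234 in NT Ribo-Seq, 738, 844 and 724 in FL RNA-Seq and 186, 375 and 779 in FL Ribo-Seq. In the mesoderm it had 630.4, 369 and 621 in RNA-Seq and 649, 305 and 727 in Ribo-Seq. RPF values of NT and FL did not overlap and RNA-Seq values did.

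Of the 4 metal ion transporters, *Slc30a9*, a zinc transporter, was the one open to a test in the dissected tissues. It had 1735, 2650.0 and 2028 normalized reads in NT RNA-Seq, 811, 1099 and 989 in NT Ribo-Seq, 1966, 1888 and 1773 in FL RNA-Seq and 492, 463 and 694 in FL Ribo-Seq. RPF values were higher in NT without overlap. The mesoderm values were 1856, 1309 and 1383 in RNA-Seq and 706, 394 and 592 in Ribo-Seq. Log2 TE was -1.80 in FL (standard error 0.23, adjusted p = 0.00012 from limma) and -1.16 in NT (0.23), the latter within 3-fold.
The zinc importer *Slc39a2* had 24.8, 32.5 and 25.6 normalized reads in mesoderm RNA-Seq and 4.47, 4.15 and 9.03 in Ribo-Seq, which are 3, 2 and 4 RPF reads. Its log2 TE of -2.15, the lowest of the class, rests on those reads, and no more than a low level can be read from it. *Slc11a1*, a divalent metal transporter of macrophage phagosomes, had the highest TE of the class, 1.54, with 66.3, 79.3 and 95.5 in RNA-Seq and 122, 436 and 255 in Ribo-Seq. Macrophage markers (9 of 10 measured) summed to 5565, 19284 and 7872 in the same Ribo-Seq libraries, highest in replicate 2 like *Slc11a1*, and their part in its value was not tested. *Slc39a10*, another zinc importer, had a log2 TE of 0.028 in the mesoderm, 0.39 in NT and -0.81 in FL. Its NT libraries had 1451, 3519.6 and 3063 normalized reads in RNA-Seq and 3291, 3488 and 3280.5 in Ribo-Seq, and its FL libraries 2932, 2602 and 2694 in RNA-Seq and 1248, 1204 and 2535 in Ribo-Seq. Mesoderm libraries had 3014, 1974 and 2409 in RNA-Seq and 3846, 1622 and 2617 in Ribo-Seq. RPF values of NT exceeded those of FL without overlap, and RNA-Seq values overlapped.

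The amino acid transporters held the highest TE of the set in the mesoderm and FL, and *Slc18a2* in NT. *Slc7a8*, a transporter of large neutral amino acids at cell membranes, had 48.6, 54.3 and 59.1 normalized reads in FL RNA-Seq and 237, 264 and 119 in FL Ribo-Seq, and 207, 160.2 and 103 in NT RNA-Seq and 248, 308 and 520.4 in NT Ribo-Seq. The mesoderm had 53.1, 117 and 120.0 in RNA-Seq and 192, 709 and 316 in Ribo-Seq. RPF values exceeded RNA-Seq values in every library pair. Log2 TE was 1.84 in FL (standard error 0.39, adjusted p = 0.0018 from limma), 1.15 in NT and 1.91 in the mesoderm. Without replicate 2 of both tissues the FL value was 1.62 at adjusted p = 0.069 from limma, and the call was lost.
*Slc38a5*, a glutamine transporter, had 65.3, 114 and 133 normalized reads in mesoderm RNA-Seq and 153, 575 and 406 in Ribo-Seq, a log2 TE of 1.68 ± 0.56 (SD, n = 3). Erythroid markers (6 of 7 measured) summed to 14561, 89248 and 23671 in the same Ribo-Seq libraries and were, like *Slc38a5*, lowest in replicate 1 and highest in replicate 2, apart from *Tfrc*, which was highest in replicate 1. Their part in its value was not tested.
*Slc38a6* had the lowest TE of the class. It had 322, 282 and 354 normalized reads in NT RNA-Seq, 108, 168 and 122 in NT Ribo-Seq, 536, 522 and 646 in FL RNA-Seq and 593, 424 and 523 in FL Ribo-Seq, and both kinds were higher in FL without overlap. In the mesoderm it had 481, 340.1 and 482 in RNA-Seq and 269.6, 324 and 379 in Ribo-Seq, and log2 TE was -0.45 in the mesoderm, -1.31 in NT and -0.16 in FL.

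*Slc35a4* was the lowest gene among the carriers of other substrates. It had 1982, 1246 and 1376 normalized reads in NT RNA-Seq, 215, 211 and 232 in NT Ribo-Seq, 2099.6, 2643 and 2431 in FL RNA-Seq and 231, 264 and 354 in FL Ribo-Seq. In the mesoderm it had 1979, 4259 and 3707 in RNA-Seq and 167, 268 and 357 in Ribo-Seq. Every RPF value lay far below every RNA-Seq value of its tissue. Log2 TE was -2.80 in NT (standard error 0.23, adjusted p = 2.8e-05 from limma), -3.10 in FL (0.23, adjusted p = 8.3e-06 from limma) and -3.68 in the mesoderm.
*Slc45a3*, a sugar transporter family member known from prostate, had 733, 581 and 526 normalized reads in NT RNA-Seq, 228, 201 and 183 in NT Ribo-Seq, 111, 150.1 and 106 in FL RNA-Seq and 40.1, 34.1 and 50.8 in FL Ribo-Seq. NT lay above FL in every library of both kinds. The mesoderm had 115, 196 and 209 in RNA-Seq and 38.7, 33.2 and 65.5 in Ribo-Seq. Log2 TE was -1.61 in NT (standard error 0.28, adjusted p = 0.0016 from limma) and -1.54 in FL, on either side of the 3-fold line by less than the standard error. Without NT RNA-Seq replicate 1 it was -1.48 in NT, and without RPF replicate 3 of both tissues -1.54, short of 3-fold each time.

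Between FL and NT, mRNA differed for 4 of the 14 genes. *Slc25a23*, *Slc45a3* and *Slc7a8* were lower in FL (21.4%, background 9.49%) and *Slc4a2* was higher (7.14%, background 7.82%), at an adjusted p under 0.05 from limma and at least 2-fold. The log2 mRNA change was -1.62 for *Slc25a23* (standard error 0.21, adjusted p = 5.3e-05 from limma), -2.32 for *Slc45a3* (0.28, adjusted p = 2.7e-05) and -1.47 for *Slc7a8* (0.39, adjusted p = 0.014). *Slc4a2* had 1793, 1436 and 1555 normalized reads in NT RNA-Seq and 3414, 3627 and 3274 in FL, and 690.3, 739 and 848 in NT Ribo-Seq and 1512, 1513 and 1538 in FL. FL exceeded NT throughout, and the mesoderm had 3133, 4281 and 4038 in RNA-Seq and 1116, 1332 and 1569 in Ribo-Seq. *Slc4a2* had an mRNA change of 1.11 (standard error 0.17, adjusted p = 0.00031 from limma). Without NT RNA-Seq replicate 1, *Slc7a8* stood at -1.24 and adjusted p = 0.058 from limma. Its call was also lost without FL replicate 1 (-1.40, adjusted p = 0.061), without NT replicate 2 (-1.42, adjusted p = 0.067) and without replicate 2 of both tissues (-1.43, adjusted p = 0.17, all from limma), the change staying over 2-fold in each. Without replicate 2 of both tissues *Slc4a2* had adjusted p = 0.074 from limma.

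RPF changes followed the mRNA for 3 of these genes, all absent from the list of TE differences. *Slc25a23* (-1.78, standard error 0.21, adjusted p = 1.7e-05 from limma) and *Slc45a3* (-2.28, 0.28, adjusted p = 2.6e-05 from limma) were lower in FL (14.3%, background 17.8%), and *Slc4a2* (1.01, 0.17, adjusted p = 0.00052 from limma) was higher (7.14%, background 14.9%). These shares are near or under the background. *Slc4a2* lay at the 2-fold line, and fell to 0.94 without NT replicate 1. Without RPF replicate 3 of both tissues, *Slc9a5* (-1.20) and *Slc25a37* (-1.44) were also lower in FL, 4 in all against a background of 26.2%, and *Slc25a39* (1.35) was also higher, 2 in all against 24.1%.

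**Figure D3:**
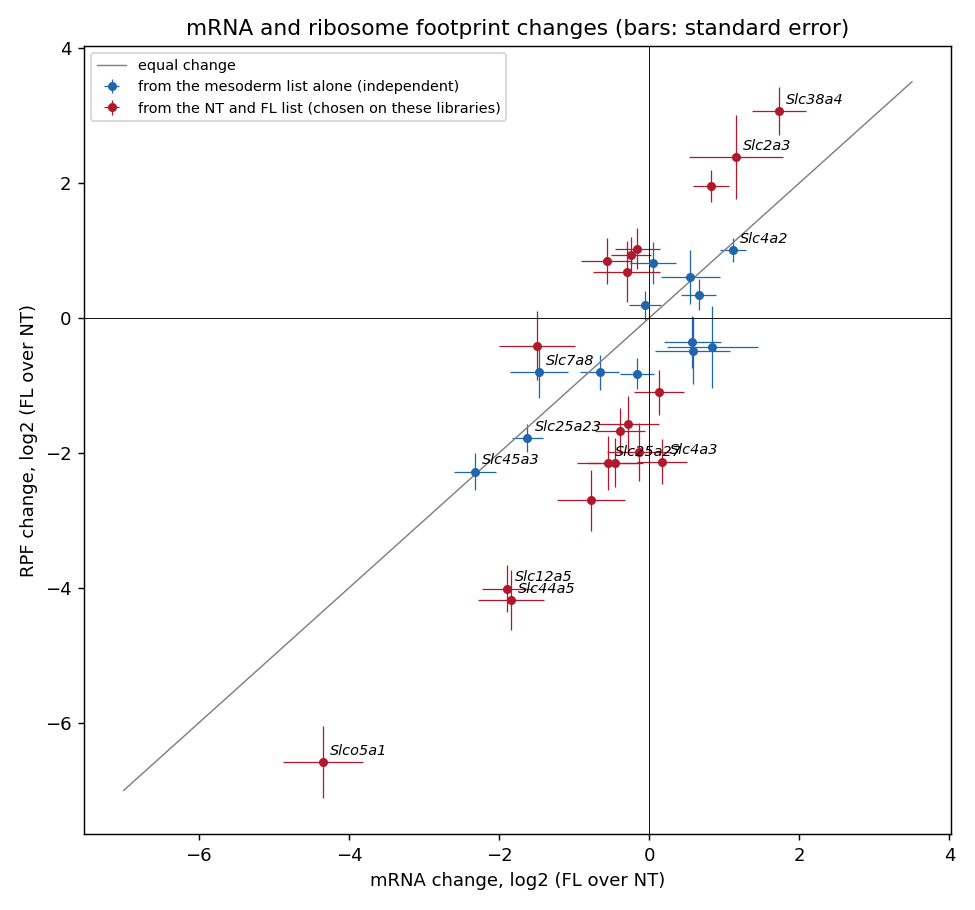
Log2 change of RPFs (y axis) against log2 change of mRNA (x axis), FL over NT, for the solute carrier genes in that data, with standard errors and a line of equal change. Slc25a23, Slc45a3 and Slc4a2, from the mesoderm list alone (blue), lie near the line. Genes chosen for a TE difference (red) lie off it by selection, and absence from their list favours the line for the blue genes.

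The 14 genes were absent from the list of the widest TE differences between FL and NT, so genes with strong changes were already left out. Few or no calls follow from that choice, and the backgrounds in this paragraph include genes that it removed. No TE change between FL and NT was called among the 14 genes with all libraries, at adjusted p under 0.2 from limma and at least 2-fold (background 0.276% lower in FL and 0.125% higher). None had an unadjusted p under 0.05, and edgeR (background 0.347%) and DESeq2 (background 7.6%) on the recovered reads also called 0 of the 14. The widest values were -1.28 for *Slc25a40* (standard error 0.86), -1.06 for *Slc25a37* (0.71) and -0.93 for *Slc9a5* (0.54). *Slc25a23* (-0.16, 0.29), *Slc45a3* (0.044, 0.39) and *Slc4a2* (-0.11, 0.25), whose mRNA differed, had TE changes smaller than their standard errors. Without RPF replicate 3 of both tissues, 5 of the 14 passed (35.7%), 3 lower (background 22.2%) and 2 higher (background 20.4%), so the share was below the background. *Slc9a5* (-1.78, standard error 0.24), *Slc25a37* (-2.02, 0.47) and *Slc25a40* (-2.10, 0.73) were lower in FL, and *Slc25a39* (1.29, 0.32) and *Slc7a8* (1.33, 0.47) were higher. Leaving out FL replicate 3 alone gave 3 lower (background 19.3%) and 2 higher (background 16.1%), and leaving out NT replicate 3 alone gave 1 lower (background 11.0%) and 2 higher (background 8.9%).

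**Figure D4:**
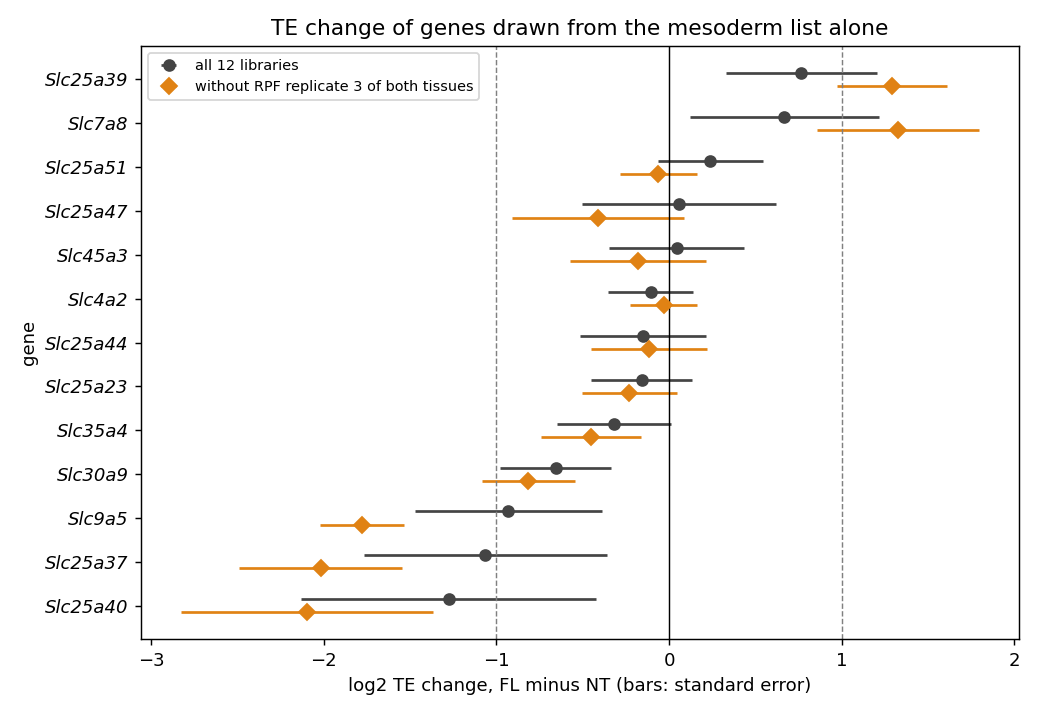
Log2 TE change, FL minus NT (x axis), of genes drawn from the mesoderm list alone, with standard errors, from all 12 libraries (circles) and without RPF replicate 3 of both tissues (diamonds); dashed lines mark 2-fold. Slc9a5, Slc25a37 and Slc25a40 move further below 0 and Slc25a39 and Slc7a8 further above it.

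The 20 genes of the tissue list were chosen for their TE difference, so their direction is not a result. TE lay lower in FL for 12 and higher for 8, from -2.34 (*Slc44a5*) to 1.41 (*Slc9a3r1*). Counts of genes passing the limits above are not given for the 20, because the same libraries chose them. Genes lower in FL included the ion exchangers and cotransporters *Slc4a3*, *Slc4a7*, *Slc8a1* and *Slc12a5*, with *Slc25a27*, *Slc39a10*, *Slc18a2*, *Slc35a5*, *Slc44a5*, *Slc5a3* and *Slco5a1*. Genes higher in FL comprised the amino acid transporters *Slc38a4*, *Slc38a6* and *Slc7a7*, the glucose transporter *Slc2a3*, the nucleoside transporter *Slc29a1*, the vitamin transporter *Slc5a6*, and *Slc7a6os* and *Slc9a3r1*. Just inside and outside 2-fold lay *Slc7a7* (1.08) and *Slc29a1* (0.99).

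*Slco5a1*, of the organic anion transporter family, differed most in level. It had 1105, 1888 and 2208 normalized reads in NT RNA-Seq and 74.8, 76.6 and 92.1 in FL, and 1536, 1279 and 1257 in NT Ribo-Seq and 4.81, 10.7 and 40.3 in FL. The FL RPF values are 3, 5 and 27 reads. The choline transporter relative *Slc44a5* had 219.9, 234 and 158 in NT RNA-Seq, 54.7, 59.1 and 53 in FL RNA-Seq, 286, 205 and 328 in NT Ribo-Seq and 6.41, 14.9 and 26.9 in FL Ribo-Seq, the last from 4, 7 and 18 reads. Neither gene overlapped between the tissues in either kind of library.
*Slc38a4*, a neutral amino acid transporter, had 1317, 362 and 466 normalized reads in NT RNA-Seq, 669, 668 and 673 in NT Ribo-Seq, 1897, 2010.2 and 2132 in FL RNA-Seq and 5696, 6138 and 5040.4 in FL Ribo-Seq. *Slc2a3*, a glucose transporter of neurons and placenta, had 4299, 645 and 417 in NT RNA-Seq, 1707, 1527 and 815 in NT Ribo-Seq, 2029, 2181 and 2882 in FL RNA-Seq and 5593, 7564 and 7177 in FL Ribo-Seq. FL RPF values of both exceeded every NT value. NT RNA-Seq replicate 1 was high for both, and for *Slc29a1* (3194 against 706 and 843) and *Slc7a7* (1237 against 248 and 357). Without that library the TE change was 0.77 for *Slc38a4* in place of 1.33, 0.22 for *Slc2a3* in place of 1.23, 0.30 for *Slc29a1* in place of 0.99 and 0.40 for *Slc7a7* in place of 1.08. *Slc38a4*, *Slc2a3* and *Slc7a7* no longer reached 2-fold, and *Slc29a1* lay further below it.

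*Slc18a2*, the vesicular monoamine transporter, had the highest NT TE of the carriers of other substrates, 1.52, with 64, 167 and 119 normalized reads in NT RNA-Seq and 262, 266 and 469.7 in NT Ribo-Seq. FL had 43.2, 87.8 and 65.1 in RNA-Seq and 28.9, 61.8 and 62.7 in Ribo-Seq, and the mesoderm 60.7, 48.2 and 105 in RNA-Seq and 73.0, 131 and 174 in Ribo-Seq. RPF values of the tissues did not overlap and RNA-Seq values did. *Slc2a3* had the highest FL TE of that class, 1.52, and *Slc5a3*, which takes up myo-inositol, the highest mesoderm TE, 1.29. *Slc5a3* had 365, 254 and 467 in mesoderm RNA-Seq and 1201, 519 and 1107 in Ribo-Seq. Its NT libraries had 429, 876 and 709.9 in RNA-Seq and 1818, 1522 and 1329 in Ribo-Seq, and its FL libraries 573, 421 and 612 in RNA-Seq and 306, 392 and 1149.6 in Ribo-Seq, so the RPF values of NT and FL did not overlap. *Slc2a3* had 415, 705 and 679 in mesoderm RNA-Seq and 737, 1126 and 1332 in Ribo-Seq.
A pair of genes with an Slc name are no transporters. *Slc9a3r1*, a scaffold protein that binds a sodium/proton exchanger, had 738, 359.9 and 436 normalized reads in NT RNA-Seq, 572, 466 and 616 in NT Ribo-Seq, 325, 323 and 340.4 in FL RNA-Seq and 1414, 1204 and 557 in FL Ribo-Seq. FL RPF replicate 3 fell among the NT values. The mesoderm had 497, 717 and 595 in RNA-Seq and 958, 1774 and 1174 in Ribo-Seq. *Slc7a6os*, named for its place opposite *Slc7a6*, had 1233, 1129 and 1151 in NT RNA-Seq, 689, 886 and 1013 in NT Ribo-Seq, 1195, 1019 and 949 in FL RNA-Seq and 2392, 2272 and 966 in FL Ribo-Seq, replicate 3 again being within the NT range. Its mesoderm libraries had 1460.2, 1213 and 1308 in RNA-Seq and 1235, 2149 and 1368 in Ribo-Seq.

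The 15 genes of the tissue list alone were also tested in the mesoderm libraries. They were absent from the list that holds the extremes of mesoderm TE. Their log2 TE ran from -1.16 to 1.53, inside the 3-fold line. The lack of calls at 3-fold follows from that choice, and the backgrounds include genes that it removed. With all libraries none was TE-low (background 10.9%) or TE-high (background 1.17%) at 3-fold by limma. edgeR and DESeq2 called none (background 12.1% in either direction for each). Without replicate 1 in both kinds of library, 1 of the 15 was TE-high. Over all 12064 genes 271 were then TE-high, against 141 with all libraries. The mesoderm list had taken 18 solute carrier genes below the median and 3 above it, which leaves an upward lean among the rest. At an adjusted p under 0.05 and any fold, 6 lay above the median (background 32.0%) and 2 below it (background 34.2%). Above it were *Slc38a4* (1.53, standard error 0.18, adjusted p = 4.3e-05 from limma), *Slc5a3* (1.29, 0.19, adjusted p = 0.00017), *Slc9a3r1* (1.04), *Slc2a3* (0.79), *Slc18a2* (0.76) and *Slc29a1* (0.76). Below it were *Slco5a1* (-1.16, standard error 0.23, adjusted p = 0.0011 from limma) and *Slc4a7* (-1.01, 0.17, adjusted p = 0.00039 from limma). *Slc38a4* had 2973, 2628 and 2824 normalized reads in mesoderm RNA-Seq and 7388, 8702 and 8915 in Ribo-Seq, without overlap. Mesoderm TE lay nearer the FL than the NT value for 7 of the 15 (46.7%) and for 53.4% of 11054 genes in both tables. *Slc38a4* was near its FL value (1.48 in FL, 0.12 in NT) and *Slc5a3* near its NT value (-0.035 in FL, 1.23 in NT). The median of the 15 was 0.27, which the same choice shapes.

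Within the mesoderm list, the genes nearest the 3-fold line were *Slc25a44* (-1.63) just inside and *Slc25a39* (-1.58) just outside on the low side, and *Slc38a5* (1.68) inside and *Slc11a1* (1.54) outside on the high side. Among the 21 genes 18 lay below the median and 3 above it. The lowest were *Slc4a3*, *Slc35a4* (-3.68 ± 0.32), *Slc9a5* (-3.52 ± 0.43) and *Slc25a47* (-3.08 ± 0.21, SD, n = 3). The first 3 differed by less than their SD.

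Per length of counted CDS, the order of genes changed between mRNA and RPFs. In mesoderm RNA-Seq the highest levels were *Slc25a39* (3719 normalized reads per kb) and *Slc35a4* (3623), and in Ribo-Seq *Slc38a4* (5262) and *Slc7a6os* (1840.0). *Slc35a4* had 288 per kb in Ribo-Seq. In NT RNA-Seq *Slc25a39* (2893) and *Slc25a51* (1878) led, and in NT Ribo-Seq the zinc importer *Slc39a10* (1373) and *Slc7a6os* (1002). In FL RNA-Seq *Slc25a39* (2877) and *Slc35a4* (2613) led, and in FL Ribo-Seq *Slc2a3* (4767) and *Slc38a4* (3551). The lowest level in FL Ribo-Seq was that of *Slco5a1* (7.46) and in mesoderm Ribo-Seq that of *Slc39a2* (6.76).

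Other membrane transport genes were counted where they stood in 1 of the same 2 lists alone. Of 7 P-type ATPases from the mesoderm list, 4 were TE-low in NT (background 4.13%) and 6 in FL (background 13.4%), with median log2 TE of -1.75 and -2.63. The same backgrounds hold for the next sets. Of 4 ABC transporters, 2 were TE-low in NT and 4 in FL (medians -1.33 and -2.25). Of 10 ion channel subunits, 2 were TE-low in NT and 5 in FL (medians -1.36 and -1.57). The solute carrier medians of -1.52 and -1.68 lay among them, and none of these sets had a TE-high gene other than *Slc7a8*. In the mesoderm, none of 6 P-type ATPases, 2 ABC transporters and 6 channel subunits from the tissue list was TE-low (background 10.9%) or TE-high (background 1.17%), as for the 15 solute carrier genes. These genes too were absent from the list of mesoderm TE extremes, so the lack of calls follows from the choice in each set.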

How the data were processed

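RNA-Seq and Ribo-Seq libraries of mesoderm, NT and FL, 3 replicates each, were deposited as 2 tables. Per the labels and the study's methods, the authors trimmed reads with cutadapt, aligned unique reads to canonical UCSC transcripts (mm10) with Bowtie2, left out 15 codons at the start of each CDS and 5 at its end when counting, and scaled the counts by DESeq. The deposited signal is normalized reads per gene. Lysates for Ribo-Seq were cleared of nuclei and mitochondria before digestion. Whole reads were recovered by finding the value of 1 read in each library. Among low values, 100.0% came out whole within 0.1 of a read.

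Log2(normalized reads + 1) was fitted over all 12064 genes (mesoderm) or 11231 genes (NT and FL) with limma 3.58.1, with adjustment by Benjamini-Hochberg over the whole table. Fold changes of low genes are understated on that scale. The mesoderm fit had replicate as a block, as the study's methods give for 1 tissue, and deviations of same-numbered libraries correlated at 0.743, 0.579 and 0.573. The NT and FL fit, which also gave TE in NT and in FL, had none, since the study's methods name no replicate term for comparing tissues. Neural tube cells were also split between both kinds of library, so the block was an alternative. There RPF and RNA-Seq libraries of the same tissue and number correlated at -0.281 to 0.349. edgeR 4.0.16 and DESeq2 1.42.0 on recovered reads were alternatives, run in R 4.3.3. The functions were tested on simulated data, in which DESeq2 made more false calls for the tissue difference than its adjusted p states. Replicates are called biological by the study, and nothing else says which embryos they came from. Genes and lists were chosen with earlier results of these data known. Values in every library are given for *Slc4a3*, for genes in both lists, for every gene called in a test independent of the choice, and for the highest and lowest TE of each class, with further genes added after their values were seen. A pair of genes counted here are not reported by name, and figures leave them out. Gene features came from GENCODE M21 (GRCm38).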

Additional observations from a re-analysis of the deposited data

How the results depend on the processing

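Alternatives were 2 other pseudocounts (0.1 and 8), a filter on genes with a mean under 100 normalized reads, edgeR, DESeq2, the replicate block, centring, a 2-fold line for TE, and leaving out replicates. Leaving out the libraries that stood apart was chosen after seeing the data. With the replicate block in the NT and FL fit, none of the counts over the 14 genes changed. They stayed at 7 TE-low in NT and 7 in FL, and at 0 and 1 TE-high. mRNA stayed at 3 lower and 1 higher, RPFs at 2 and 1, and TE change at 0 and 0. TE changes over all genes went from 31 lower and 14 higher to 5 and 1. Without the block in the mesoderm, the counts over the 15 genes stayed at 0 and 0. A 2-fold line gave 2 TE-low and 3 TE-high of the 15 in the mesoderm, 1 TE-high of the 14 in NT and 11 TE-low in FL. Over all genes that line gave 2596 TE-low and 1582 TE-high of 12064 in the mesoderm. In the dissected tissues it gave 507 TE-high in NT and 2581 TE-low in FL, of 11231 genes. Without RPF replicate 3 of both tissues the TE change gave 3 lower and 2 higher, and RPFs 4 lower and 2 higher. Centring the RPF change or using edgeR left 0 higher, since *Slc4a2* then lay at 0.969.

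Leaving out 1 replicate at a time, in 1 tissue or both, gave 0 to 1 TE-high of the 15 genes in the mesoderm, 0 to 3 lower and 0 to 2 higher in TE change, 0 to 1 higher in mRNA, 2 to 5 lower and 0 to 2 higher in RPFs, 0 to 1 TE-high in NT, and 5 to 10 TE-low and 0 to 1 TE-high in FL. The TE change of *Slc29a1* without replicate 1 of both tissues was -0.021, reversed from 0.99, and without replicate 3 it was 1.77. Over all genes, leaving out replicates moved the TE change from 0 to 2504 lower and from 0 to 2329 higher, and DESeq2 gave 285 and 568. By the same alternatives TE-high counts ran from 72 to 271 in the mesoderm (141 with all libraries), 29 to 73 in NT (49) and 314 to 1406 in FL (702), and TE-low counts from 270 to 488 in NT (464) and 917 to 2039 in FL (1502). RPF changes ran from 1037 to 2925 lower (2003) and 649 to 2711 higher (1675), and higher mRNA from 448 to 905 (878). The causes were not tested. Genes with few RPF reads limit precision, above all *Slc39a2*, *Slco5a1* and *Slc44a5*.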
